A study of Homo sapiens with 12 samples.

Results

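The genes described here build and load MHC class I molecules, which display fragments of a cell's own proteins to CD8 T cells and natural killer cells. They are the rows for the heavy chains HLA-B and HLA-C, their light chain B2M, the peptide transporter TAP1 and TAP2, the loading chaperone TAPBP, the immunoproteasome subunits PSMB8 and PSMB9, and the trimming peptidase ERAP1. They were chosen by symbol from general knowledge of the pathway, and all 9 were listed in each of the 4 result tables, among 23195 genes listed in any table and 19393 listed in all. Expression had been measured by sequencing polyA RNA from HCT116, a human colorectal carcinoma line with working p53. The transcription factor RFX7 was depleted with siRFX7, siControl served as the non-depleting counterpart, and the cells were then kept for 24 h in 10 µM Nutlin-3a or in its solvent, DMSO. Nutlin-3a blocks MDM2, the ubiquitin ligase that holds p53 down, and so activates p53. The 4 groups, which cross the siRNAs with the drug or its solvent, had 3 libraries each, all from 1 cell line. The labels do not give the number of siRNAs used against RFX7, nor whether the libraries of a group came from separate cultures, so the errors below may hold technical spread only.

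Class I presentation runs as a chain. Proteasomes cut proteins into peptides, and in cells that have met interferon the subunits PSMB8 and PSMB9 take the places of PSMB5 and PSMB6 in the catalytic core. TAP1 and TAP2 form a pump that carries the peptides into the endoplasmic reticulum, ERAP1 trims them, and TAPBP, also called tapasin, holds empty class I molecules beside the pump until a peptide fits. The heavy chain reaches the cell surface only together with B2M. Interferon regulatory factors and NF-kB act on these genes, and the class I heavy chain and B2M promoters also carry a module read by RFX5, RFXAP and RFXANK with the coactivator NLRC5. p53 is known to raise TAP1 and ERAP1. RFX7 belongs to the same DNA-binding family as RFX5 but is not part of that complex.

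The promoters of most of these genes hold the letters of the interferon-stimulated response element (ISRE), to which interferon regulatory factors bind, and these sites are shown because the genes are discussed below beside interferon-stimulated genes. RefSeq promoter windows (GRCh38.p14, 250 bases before to 50 bases after a start site) were found for 9 of 9 genes. The ISRE core, searched as a pair of GAAA blocks with 2 bases of any kind between them on either strand, was present in windows of 6 of them, B2M, TAP1, TAP2, TAPBP, PSMB8 and ERAP1, and in 3.57% of 34796 windows of the same length across all genes. The sites are written 5′ to 3′ on the strand of the gene, with the matching letters in capitals, and none of the matches overlapped a match to another motif searched.
B2M: ctctaaGAAAAGGAAACTGAAAacggga
TAP1: ggccgcTTTCGATTTCGCTTTCccctaa
TAP2: tggggaagcGAAAGCGAAAgctgcccga
TAPBP: ttggagGAAAGTGAAAGTGAAAggagga
PSMB8: atctgtggcTTTCGCTTTCacttcctcc
ERAP1: gggctccacTTTCACTTTCggtcctggg
They lie at chr15:44711367-44711394 (plus strand), chr6:32853817-32853844, chr6:32838779-32838806, chr6:33314077-33314104, chr6:32844033-32844060 and chr5:96807925-96807952 (all minus strand), in the same order. The capitals of B2M, TAP1 and TAPBP hold 2 overlapping matches each.

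For RFX factors, the full X box, searched as GTTGC, 3 bases of any kind, G, 1 base of any kind and AAC on either strand, was in none of the windows of the 9 genes and in 0.489% of all windows. This strict pattern thus did not match the RFX5 module of the heavy chain and B2M promoters named above. Its absence does not show that these promoters lack RFX sites. A shorter RFX motif, GTTGCNA, was in windows of PSMB8 and ERAP1 and in 9.20% of all windows. These sites are shown because RFX7 was the factor depleted.
PSMB8: gccaacacagGTTGCAAgaagaggcgg
ERAP1: atcccccgcaTCGCAACctcgcagctt
They lie at chr6:32844694-32844720 and chr5:96808123-96808149, both on the minus strand. Binding was not measured in these data. An NF-kB motif, GGG and CC with 5 bases of any kind between them, and CCAAT were common, at 58.6% and 34.6% of all windows, and the CRE core TGACGNCA was in none of the 9 genes' windows and in 3.49% of all.

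The files hold a mean over all libraries and the fold changes between groups, so a level could be recovered for each group but not for each library. Recovered depth averaged 26639045 to 27271031 counts per library in the 4 groups. Values per group are given below as DMSO first and Nutlin-3a second. RFX7 itself fell to a fold of 0.20 in DMSO and 0.23 in Nutlin-3a with its siRNA, in the authors' deposited tables. The p53 targets MDM2 and CDKN1A rose 15.9-fold and 22.1-fold with Nutlin-3a in siControl and 9.85-fold and 11.6-fold in siRFX7, in the authors' deposited tables. All 6 epithelial markers examined were abundant, with mean normalized counts of 2585 to 80338. Of 8 markers of immune cells, PTPRC, CD3E and MS4A1 were not listed and the other 5 had mean normalized counts of 1.66 to 13.8. All 4 fibroblast markers were listed, with DCN and COL1A2 at means of 1.15 and 1.42, PDGFRB at 19.4 and COL1A1 at 441. COL1A1 had recovered levels of 400 and 349 in siControl and 515 and 500 in siRFX7, so it was higher with siRFX7 like several class I genes, and its part in those results was not tested.

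In resting siControl cells the heavy chains were among the more abundant mRNAs and the immunoproteasome subunits were low. As in any bulk RNA sample, fewer cells expressing a gene and less RNA per cell cannot be told apart. Levels between genes are compared as normalized counts (counts divided by a library's size factor) per kb of merged exon length in GENCODE 29. HLA-C led with 3159 per kb in siControl DMSO, followed by HLA-B with 1293, B2M with 812, TAP1 with 362, TAPBP with 307 and TAP2 with 103. ERAP1 and PSMB9 were close, at 35.2 and 30.3 per kb, with model errors of 7.62% and 14.5%, so their order is not settled. PSMB8 was last with 2.46 per kb. Among 13490 protein-coding genes the level per kb of HLA-C in siControl DMSO was at percentile 98.0, that of TAP1 at 73.5, that of PSMB9 at 23.9 and that of PSMB8 at 6.37. The standard subunits that PSMB8 and PSMB9 replace, PSMB5 and PSMB6, stood at 3669 and 3567 per kb in siControl DMSO.

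Reads can be split between some of these genes. Of all 50-base stretches in GENCODE 29 transcripts, 2.72% of those of HLA-B and 5.38% of those of HLA-C also occur in transcripts of other genes, mainly each other and other class I genes. For TAP2 the share was 31.3%, all of it shared with AL669918.1, an overlapping gene model on the same strand that is not analysed here. Exons of the antisense gene PSMB8-AS1 cover 20.6% of the exon length of PSMB8 on the other strand. Exons of CAST cover 3.76% of the exon length of ERAP1, also on the other strand. CAST had a mean normalized count of 5659, beside 391 for ERAP1. How reads were assigned by strand or among several matches is not given in the sources used here. The values of HLA-B, HLA-C, TAP2, PSMB8 and ERAP1 are therefore uncertain to that extent. PSMB8-AS1 had a mean normalized count of 3.85 and PSMB8 of 6.21.

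**Figure D1:**
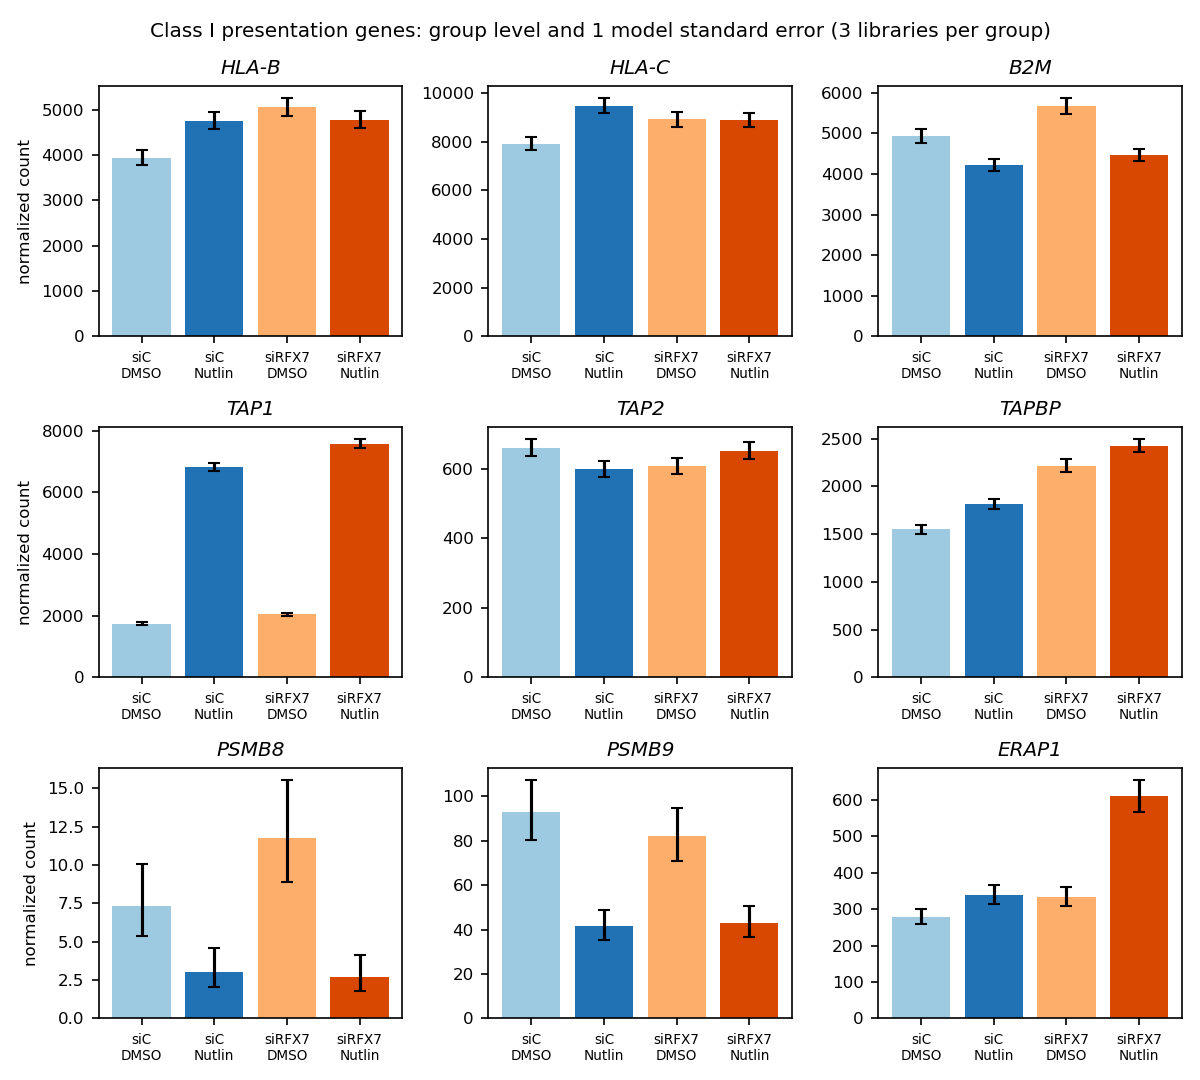
Recovered group level (normalized count, linear axes from 0) of each of the 9 genes in siControl (siC) and siRFX7 cells in DMSO or Nutlin-3a; bars are group means and whiskers 1 model standard error from 3 libraries per group. TAP1 is 1740 and 2043 in DMSO against 6817 and 7573 in Nutlin-3a, and ERAP1 is 610 in siRFX7 with Nutlin-3a against 279 to 340 in the other 3 groups.

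The Nutlin-3a comparison in siControl asks how class I genes respond to p53 activation. Their responses went in different directions. TAP1 rose to a level per kb of 1419, beside 1558 for HLA-B. HLA-B, HLA-C and TAPBP rose slightly, B2M fell slightly and PSMB9 fell to a fold of 0.45. TAP2, PSMB8 and ERAP1 did not pass the threshold. Of the 9, 4 were higher and 2 lower at a DESeq2 adjusted p below 0.05 in the authors' deposited table, where 22.0% of all genes were called higher, 21.2% lower and 43.2% in either direction. Of the more abundant genes (mean normalized count 100 or more), 65.5% were called. The median log2 change of the 9 was 0.23, beside 0.02 over all genes.

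TAP1, one chain of the peptide pump, is at chr6:32845209-32853978 (GRCh38, minus strand). Its recovered level was 1740 and 6817 in siControl and 2043 and 7573 in siRFX7. Both Nutlin-3a groups lay far above both DMSO groups, with model errors of 2.03% to 2.37%. In the authors' deposited tables the rise was 3.92-fold in siControl (log2 1.97, standard error 0.05) and 3.71-fold in siRFX7 (log2 1.89, standard error 0.04), with an adjusted p from DESeq2 listed as 0 in both. The difference between the responses was -0.08 on the log2 scale (95% interval -0.20 to 0.04, z test adjusted p 0.632). The TAP1 change was larger than that of 96.0% of genes in siControl and 96.9% in siRFX7.

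TAP2, the other chain of the pump, is at chr6:32821833-32838780, minus strand, beside TAP1. Its recovered levels were 661 and 600 with siControl and 607 and 651 with siRFX7. The model errors were 3.76% to 3.84%, the 4 groups were close together, and no comparison of TAP2 passed the threshold. Its Nutlin-3a change in siControl had a 95% interval of -0.29 to 0.01 on the log2 scale, computed from the authors' deposited table. TAP1 was 3.50 times TAP2 per kb in DMSO and 15.1 times in Nutlin-3a in siControl, and 4.47 and 15.5 times in siRFX7.

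HLA-B and HLA-C, the class I heavy chains, are at chr6:31269491-31357188 and chr6:31268749-31272130, both on the minus strand. The long span of HLA-B comes from a transcript model that runs into HLA-C. HLA-B had recovered levels of 3946 (DMSO) and 4754 (Nutlin-3a) in siControl cells and 5059 and 4783 in siRFX7 cells. HLA-C had 7921, 9475, 8922 and 8892 in the same order. For both genes the siControl DMSO group was the lowest and the other 3 groups were close together. With Nutlin-3a in siControl the authors' deposited table gave rises of 20.5% for HLA-B (log2 0.27, standard error 0.08, DESeq2 adjusted p 0.00280) and of 19.6% for HLA-C (log2 0.26, standard error 0.07, DESeq2 adjusted p 0.000604). In siRFX7 neither passed, with log2 changes of -0.08 for HLA-B and -0.00489 for HLA-C (adjusted p 0.474 and 0.969 from DESeq2 in the authors' deposited table).

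B2M, the light chain shared by all class I molecules, is at chr15:44711487-44718877, plus strand. Its recovered levels were 4936 and 4221 in siControl and 5674 and 4460 in siRFX7. Both Nutlin-3a groups were lower than both DMSO groups, the opposite order to TAP1. In the authors' deposited tables B2M fell by 0.23 on the log2 scale in siControl (standard error 0.07, DESeq2 adjusted p 0.00439) and by 0.35 in siRFX7 (standard error 0.07, DESeq2 adjusted p 4.47e-06).

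The immunoproteasome genes had few counts, and PSMB9 fell under both siRNAs. PSMB9 is at chr6:32844136-32859585, plus strand, and its recovered levels were 92.9 and 41.6 with siControl and 81.9 and 43.1 with siRFX7. The Nutlin-3a groups were close to each other and below both DMSO groups. In the authors' deposited tables PSMB9 changed to a fold of 0.45 in siControl (log2 -1.16, standard error 0.31, DESeq2 adjusted p 0.000655) and of 0.53 in siRFX7 (log2 -0.93, standard error 0.31, DESeq2 adjusted p 0.00856). PSMB8, at chr6:32840717-32844703, minus strand, had recovered levels of 7.36, 3.05, 11.7 and 2.69 in the same order of groups. With so few counts its change in siControl did not pass, with an interval of -2.71 to 0.17 on the log2 scale computed from the authors' deposited table. In siRFX7 it fell to a fold of 0.23 (95% interval 0.0854 to 0.617, DESeq2 adjusted p 0.0103), computed from the authors' deposited table. In siRFX7 the calls for PSMB9 and PSMB8 did not hold when the statistic was read against a t distribution with 8 degrees of freedom, with adjusted p of 0.0520 and 0.0562.

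TAPBP and ERAP1 were each called with Nutlin-3a under a single siRNA, TAPBP in siControl and ERAP1 in siRFX7; the differences between the siRNAs did not pass their own test, given below. TAPBP, the loading chaperone, is at chr6:33299694-33314387, minus strand, with recovered levels of 1552 (DMSO) and 1817 (Nutlin-3a) in siControl cells and 2219 and 2428 in siRFX7 cells. Both siRFX7 groups were above both siControl groups. Its Nutlin-3a change was 0.23 in siControl (standard error 0.06, DESeq2 adjusted p 0.000550) and 0.13 in siRFX7 (standard error 0.06, DESeq2 adjusted p 0.0594) as log2 values in the authors' deposited tables. Over genes whose mean normalized count was at least 10 the latter had an adjusted p of 0.0458. ERAP1, the peptide trimmer, is at chr5:96760810-96808100, minus strand, with recovered levels of 279, 340, 334 and 610 in the same order. Only the siRFX7 Nutlin-3a group of ERAP1 stood apart from the other 3. ERAP1 did not pass in siControl (log2 0.28, standard error 0.15, DESeq2 adjusted p 0.135) and rose 1.83-fold in siRFX7 (log2 0.87, standard error 0.15, DESeq2 adjusted p 3.52e-08), in the authors' deposited tables. In siRFX7 cells, 2 of the 9 genes were called higher with Nutlin-3a, TAP1 and ERAP1, and 3 lower, B2M, PSMB8 and PSMB9, in the authors' deposited table. There 41.4% of all genes were called, 21.7% higher and 19.7% lower, and 62.7% of those with a mean of at least 100. The median log2 change of the 9 was -0.00489, beside -0.02 over all genes.

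**Figure D2:**
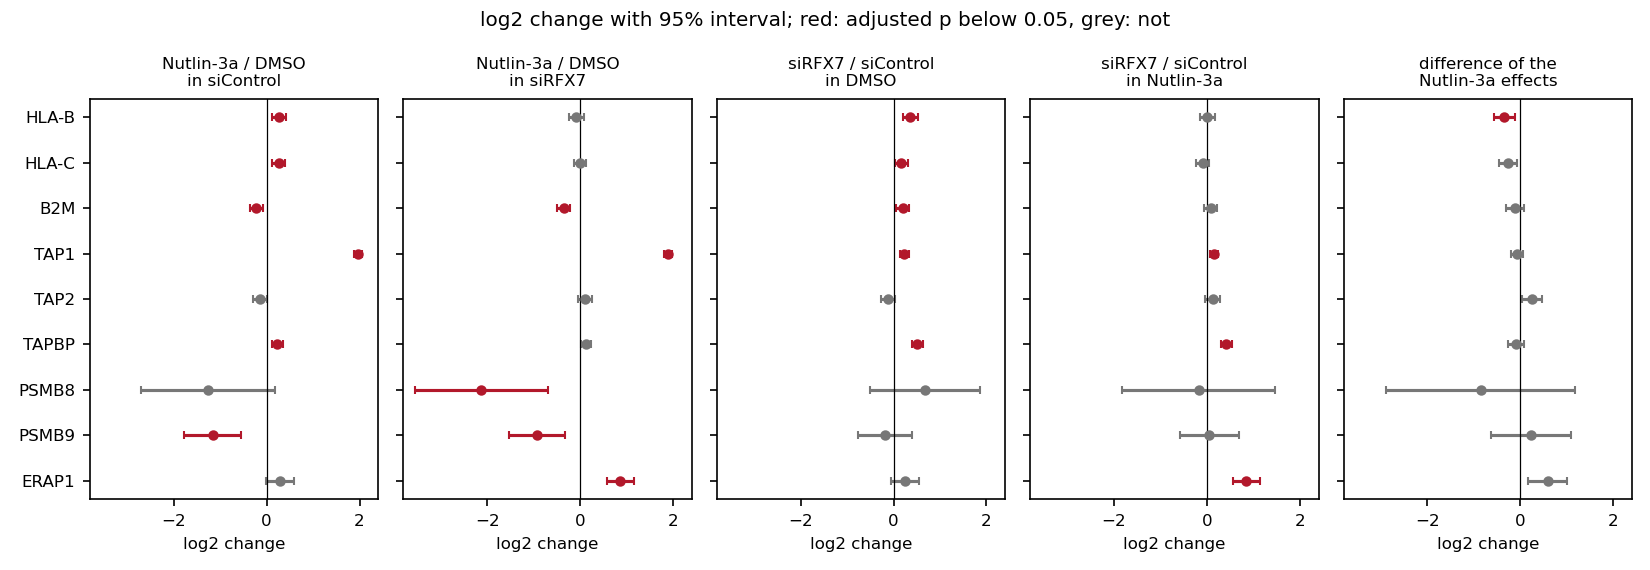
log2 change (x axis) of each gene in the 4 deposited comparisons and in the difference of the Nutlin-3a effects; points are estimates, bars 95% intervals, red where the adjusted p was below 0.05. TAP1 sits at 1.97 and 1.89 in the panels of Nutlin-3a over DMSO, and PSMB8 has the widest intervals. In the panels of siRFX7 over siControl the called genes are all right of 0.

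The siRFX7 comparisons ask what the loss of RFX7 does to these genes at rest and under p53 activation. Called class I genes were higher, none lower, in both treatments. In DMSO, TAPBP, HLA-B, TAP1, B2M and HLA-C rose, which is 5 of 9 in the authors' deposited table, where 13.5% of all genes were called higher, 15.5% lower and 29.0% in either direction (40.5% of those with a mean of at least 100). In Nutlin-3a, ERAP1, TAPBP and TAP1 rose, which is 3 of 9 in the authors' deposited table, where 15.0% of all genes were called higher, 13.6% lower and 28.6% in either direction (39.1% of those with a mean of at least 100). No member was lower at an unadjusted p below 0.05 in the DESeq2 tables either. The t distribution gives larger p-values, so it could not add one.

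TAPBP had the largest change of the 5 called in DMSO, 1.43-fold (log2 0.52, standard error 0.06, DESeq2 adjusted p 2.73e-16), in the authors' deposited table. The DMSO values of the others called in the authors' deposited table were 1.28-fold for HLA-B (DESeq2 adjusted p 8.78e-05), 1.17-fold for TAP1 (1.31e-05), 1.15-fold for B2M (0.0186) and 1.13-fold for HLA-C (0.0452). The calls for B2M and HLA-C were lost at a threshold of 0.01 and with the t distribution, where their adjusted p were 0.0909 and 0.133. In Nutlin-3a, ERAP1 rose 1.80-fold (log2 0.85, standard error 0.15, DESeq2 adjusted p 2.63e-07), TAPBP 1.34-fold (log2 0.42, standard error 0.06, DESeq2 adjusted p 3.96e-11) and TAP1 1.11-fold (log2 0.15, standard error 0.04, DESeq2 adjusted p 0.00170), in the authors' deposited table. HLA-B, with a log2 change of 0.00876 and a 95% interval of -0.15 to 0.17, and HLA-C, with -0.09 and an interval of -0.23 to 0.04, did not pass in Nutlin-3a, computed from the authors' deposited table. ERAP1 in DMSO was not called (log2 0.26, standard error 0.15, DESeq2 adjusted p 0.221 in the authors' deposited table). MDM2 and CDKN1A were also higher with siRFX7 in DMSO, 1.40-fold and 2.44-fold in the authors' deposited table, and their part in the class I changes was not tested. The median log2 change of the 9 genes was 0.23 in DMSO and 0.08 in Nutlin-3a, beside -0.00318 and 0.00218 over all genes.

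Whether the Nutlin-3a response itself differed with the knockdown was tested as the difference of the 2 log2 changes, with a z test over 23195 genes, of which 6.2% were called, 3.28% higher and 2.92% lower (10.6% of those with a mean of at least 100). HLA-B was the only member called, with a difference of -0.35 (standard error 0.11, adjusted p 0.0399), between 0.27 in siControl and -0.08 in siRFX7. HLA-C had a difference of -0.26 (95% interval -0.45 to -0.07, adjusted p 0.0886) and ERAP1 of 0.59 (0.17 to 1.01, adjusted p 0.0820), and neither passed. The HLA-B call was lost with the t distribution, with an adjusted p of 0.277. With equal group totals HLA-C was called too (adjusted p 0.0456), and over genes with a mean of at least 100 ERAP1 was (0.0486). For TAP2 the difference was 0.24 (0.03 to 0.46, adjusted p 0.216), and for B2M, TAP1, TAPBP, PSMB8 and PSMB9 the intervals included 0.

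TAP1 and PSMB9 stand head to head in RefSeq, where their nearest start sites are 488 bases apart on chromosome 6, at 32853704 and 32854192, on opposite strands. The annotations differ here: the GENCODE 29 span of PSMB9 given above contains all of TAP1, so its first base lies beyond the far end of TAP1. Which PSMB9 start the cells used was not tested. They went opposite ways with Nutlin-3a in both siRNA groups, TAP1 up 3.92-fold and 3.71-fold and PSMB9 to folds of 0.45 and 0.53 in the authors' deposited tables. TAP2, PSMB8 and PSMB9 also lie within 100 kb of TAP1, and of these PSMB9 under both siRNAs and PSMB8 in siRFX7 were called lower with Nutlin-3a, as given above. Besides these class I genes, 11 genes are annotated in that window, and 6 of the 11 were listed in the Nutlin-3a tables. Of these 6, only HLA-DQB2, a class II chain, was called with Nutlin-3a, higher in siControl with a log2 change of 1.34 (standard error 0.34, DESeq2 adjusted p 0.000248) in the authors' deposited table. In siRFX7 none of the 6 was called with Nutlin-3a by DESeq2 in the authors' deposited table, and 0 of 6 had an unadjusted p below 0.05.

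**Figure D3:**
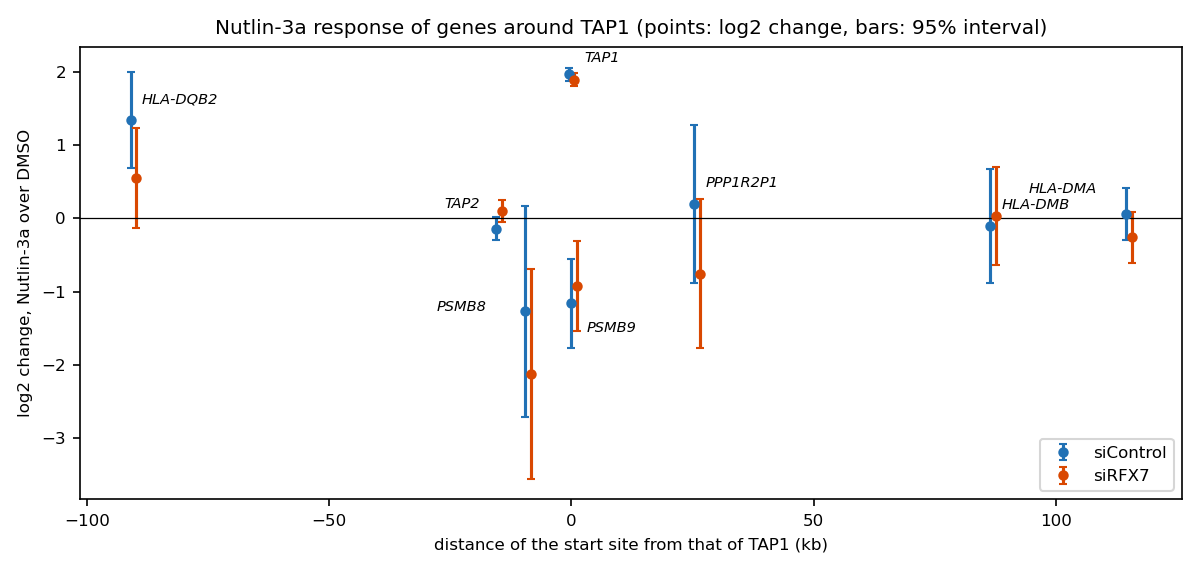
log2 change with Nutlin-3a over DMSO (y axis) against the distance of a gene's start site from that of TAP1 in kb (x axis), in siControl (blue) and siRFX7 (orange), with 95% intervals; RefSeq starts are used for the class I genes and GENCODE 29 starts for the others, and neighbours with a mean normalized count under 10 are left out. TAP1 is near 2 while PSMB9, 488 bases away by its RefSeq start, is below 0 under both siRNAs.

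Other class I genes, of a list of 20 partners written from general knowledge, moved in both directions. With Nutlin-3a in siControl 9 of 20 were called higher and 1 called lower in the authors' deposited table, led by MR1, which presents vitamin B metabolites, with a log2 change of 1.61 (standard error 0.11), ERAP2, the second trimming peptidase, with 1.23 (standard error 0.27), and PSMB10, the third immunoproteasome subunit, with 0.89 (standard error 0.32). PSMB10 thus went the other way from PSMB9, from a recovered 19.3 to 35.9 normalized counts. The gene called lower was HFE, the class I-like regulator of iron uptake, for which the authors' deposited table gave -0.32 (standard error 0.09). The list's median was 0.05, beside 0.02 over all genes, of which 22.0% were called higher and 21.2% lower.

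HLA-E and HLA-F were lower with siRFX7 in DMSO, where HLA-B and HLA-C were higher. HLA-E, the ligand of the NKG2A receptor, had recovered levels of 2738 and 3838 in siControl and 2181 and 2137 in siRFX7, so that both siRFX7 groups were lowest. By the authors' deposited tables HLA-E fell with siRFX7 by 0.33 in DMSO and by 0.84 in Nutlin-3a on the log2 scale (DESeq2 adjusted p 3.75e-08 and 9.79e-52). HLA-F, another non-classical heavy chain, fell by 0.60 and 0.98 on the log2 scale (DESeq2 adjusted p 4.87e-05 and 4.91e-11) in the authors' deposited tables. The difference of the Nutlin-3a effects was -0.52 for HLA-E (z test adjusted p 3.49e-09), beside -0.35 for HLA-B. Of the 20 partners, 19 were listed in the siRFX7 tables, and 3 were called higher and 5 lower in each treatment in the authors' deposited tables. Over all genes, 13.5% were called higher and 15.5% lower in DMSO, and 15.0% and 13.6% in Nutlin-3a. Of the 50-base stretches of HLA-E, 4.34% occur in other genes, so its values share the uncertainty given above for HLA-B and HLA-C.

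The regulators of class I genes were examined in a list of 28. RFX5, the DNA-binding subunit of the complex that reads class I promoters, had recovered levels of 1118 and 3104 with siControl and 919 and 676 with siRFX7. It rose 2.78-fold with Nutlin-3a in siControl and fell by 0.44 on the log2 scale in siRFX7, per the authors' deposited tables (adjusted p from DESeq2 6.92e-80 and 4.70e-07). With siRFX7 in Nutlin-3a the log2 change of RFX5 was -2.20 (standard error 0.08, DESeq2 adjusted p 9.98e-164) in the authors' deposited table, while HLA-B, HLA-C and B2M were not called there. Its partner RFXAP fell by 1.18 with Nutlin-3a in siControl and its partner RFXANK rose by 0.55 (log2) in the authors' deposited table. NLRC5, the class I coactivator, fell by 0.58 with Nutlin-3a in siControl and was higher by 0.75 with siRFX7 in Nutlin-3a on the log2 scale (DESeq2 adjusted p 0.00106 and 2.25e-05), in the authors' deposited tables. CIITA, the class II coactivator, had recovered levels of 4.66 to 13.3 and was not called in any comparison.

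IRF1, an activator in the interferon pathway, rose with Nutlin-3a under both siRNAs, by 0.60 in siControl and 0.93 in siRFX7 as log2 values (DESeq2 adjusted p 6.31e-10 and 8.40e-23), in the authors' deposited tables. With siRFX7, IRF1 was not called in DMSO (log2 -0.05, DESeq2 adjusted p 0.789) and rose by 0.28 in Nutlin-3a (0.00843), by the authors' deposited tables. Over the whole list of 28, 10 were called higher and 7 lower with Nutlin-3a in siControl. The counts were 12 and 7 with Nutlin-3a in siRFX7, 3 and 6 with siRFX7 in DMSO and 9 and 6 with siRFX7 in Nutlin-3a, as the authors' deposited tables give them. The list's medians were 0.10, 0.14, -0.05 and 0.04 in that order. Over all genes, 22.0% were called higher and 21.2% lower with Nutlin-3a in siControl, and 21.7% and 19.7% in siRFX7. With siRFX7 the shares of all genes were 13.5% higher and 15.5% lower in DMSO, and 15.0% and 13.6% in Nutlin-3a.

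Interferon-stimulated genes were called in both directions with Nutlin-3a and only higher with siRFX7. Of 27 listed from general knowledge, 22 were in the Nutlin-3a tables and 21 in the siRFX7 tables. With siRFX7 in DMSO, 16 of 21 were called higher and none lower by DESeq2 in the authors' deposited table, with a median log2 change of 0.57, where 13.5% of all genes were called higher; at an unadjusted p below 0.05 the counts were 16 and 0. With siRFX7 in Nutlin-3a, 9 of 21 were called higher and none lower by DESeq2 in the authors' deposited table (10 and 0 at an unadjusted p below 0.05), with a median of 0.42. There 15.0% of all genes were called higher. The largest changes by the naming rule were those of TRIM22, an antiviral ligase, at 2.30, MX1, an antiviral GTPase, at 1.70 and BST2, which tethers virus particles, at 1.47 in DMSO, and those of IFI6 at 1.01, IFIT1 at 0.97 and the RNA sensor IFIH1 at 0.91 in Nutlin-3a, as the authors' deposited tables give them. With Nutlin-3a in siControl 7 of 22 were called higher and 4 lower, with ISG15 at 1.57 and OAS3 at -1.98 in the authors' deposited table, and a median of 0.08. The shares of all genes were 22.0% and 21.2%. TRIM22, named above for siRFX7, was also higher with Nutlin-3a. Its recovered levels were 5.68 (DMSO) and 67.4 (Nutlin-3a) in siControl and 27.9 and 88.6 in siRFX7. PSMB8 and PSMB9, which are interferon-inducible themselves, were not called with siRFX7 in DMSO (log2 0.68 and -0.18, standard errors 0.60 and 0.30, DESeq2 adjusted p 0.454 and 0.716 in the authors' deposited table). The part of the interferon-stimulated genes' regulators in the class I changes was not tested.

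Class II genes, which share the RFX5 module, were scarce in these cells. Of 13 listed class II and loading genes, 11 were in the siRFX7 table for DMSO, where 4 were called higher and none lower by DESeq2 (5 and 0 at an unadjusted p below 0.05), with a median of 0.88, and 9 in that for Nutlin-3a, where 4 were called higher and 1 lower, with a median of 0.88, in the authors' deposited tables. Over all genes, 13.5% were called higher and 15.5% lower with siRFX7 in DMSO, and 15.0% and 13.6% in Nutlin-3a. HLA-DRB1, a class II beta chain, had recovered levels of 19.0 (DMSO) and 35.5 (Nutlin-3a) in siControl cells and 131 and 170 in siRFX7 cells. HLA-DQB1, another beta chain, went the other way with siRFX7 in Nutlin-3a, with a log2 change of -0.81 (standard error 0.23, DESeq2 adjusted p 0.00251) in the authors' deposited table. Class II genes have near-identical relatives, and their values are uncertain.

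**Figure D4:**
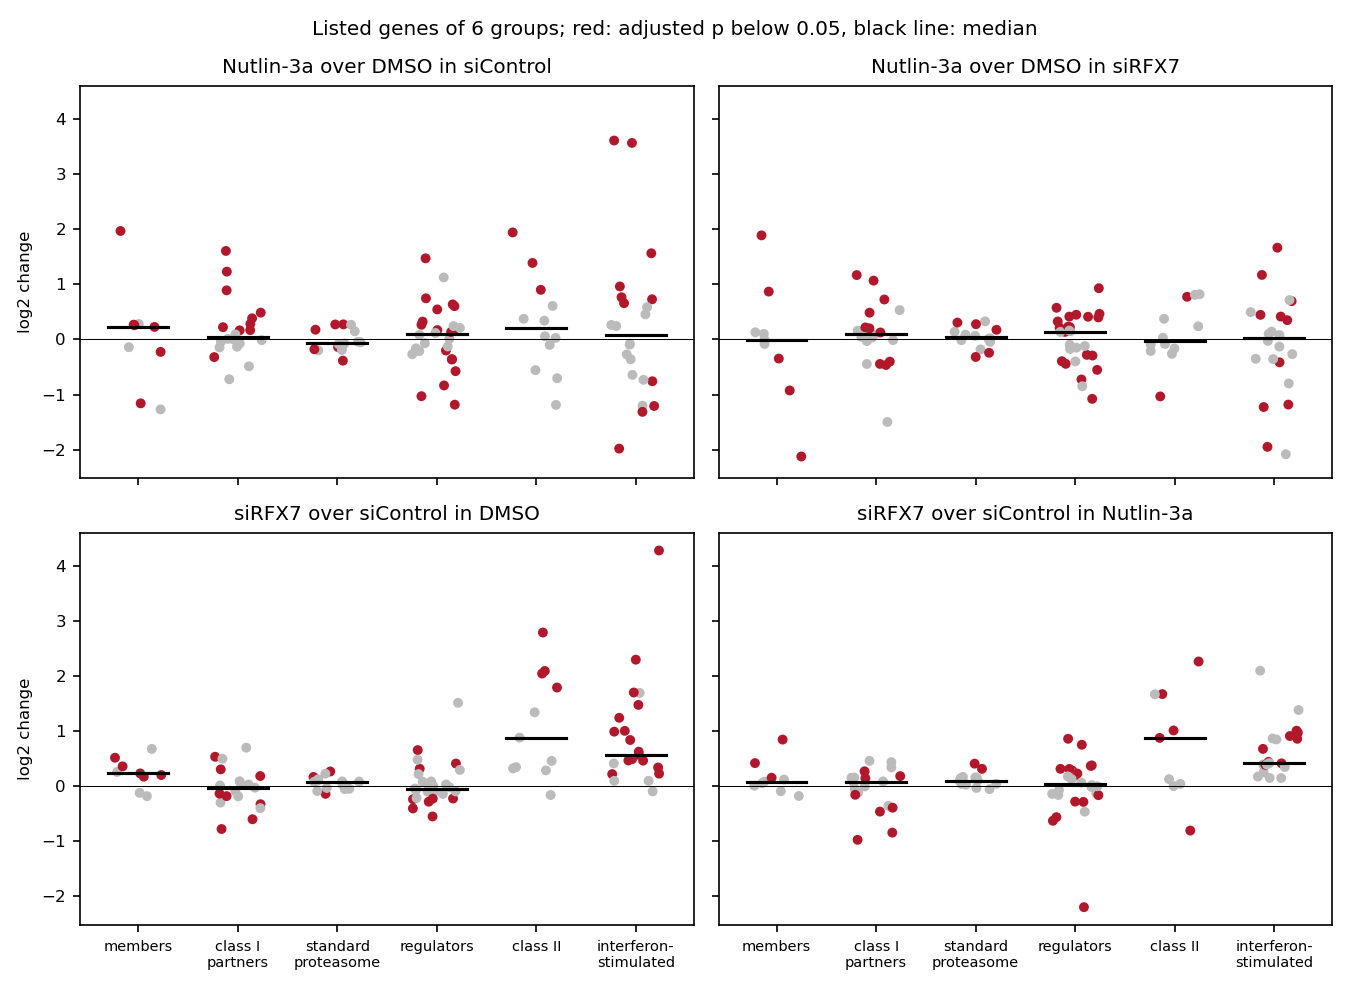
log2 change (y axis) of the listed genes of 6 groups (x axis) in the 4 deposited comparisons; points are genes, red where the adjusted p was below 0.05, and black lines are medians. With siRFX7 in DMSO the 21 interferon-stimulated genes have a median of 0.57 and the 9 class I genes one of 0.23, and the 14 standard proteasome subunits one of 0.08, with a range of -0.14 to 0.27.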

How the data were processed

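PolyA RNA of 12 HCT116 libraries was sequenced, 3 for each of 4 groups that cross siControl or siRFX7 with DMSO or 10 µM Nutlin-3a for 24 h. Per the submitters' processing notes, bcl2fastq 2.20.0.422, Trimmomatic 0.39, cutadapt 2.10, FastQC 0.11.9, SAMtools 1.10, Picard, featureCounts 1.6.5 and DESeq2 1.20.0 were used with hg38. The aligner, the annotation, and how strand and multiply matching reads were treated are not given in the sources used here. The deposited tables, per the file headers, hold DESeq2 results: a mean normalized signal over all libraries (baseMean), log2 fold changes with standard errors, a Wald statistic score, and p-values with Benjamini-Hochberg adjustment, all made by the authors. Values per library were not analysed here, so no test on counts was run.

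Group levels were recovered from the mean and the fold changes. Their model errors rest on size factors and dispersions recovered from the deposited standard errors, which the rebuilt ones matched within a median of 0.000272%. The direction siRFX7 over siControl was taken because the 4 fold changes then close. The difference of Nutlin-3a effects had a z test (two-sided), adjusted by Benjamini-Hochberg over 23195 genes. A gene was called at an adjusted p below 0.05. The z test and the recovery of group levels, size factors and dispersions were tested on simulated data. The other steps were not. Positions and exon lengths are from GENCODE 29, which held 99.9% of the listed IDs, and promoters from RefSeq. Listed genes were named, up to 3 per direction and comparison by size, among those called whose mean normalized count was at least 10, besides RFX5, RFXAP, RFXANK, NLRC5, CIITA and IRF1. Alternatives tried were other thresholds, scalings, filters on low counts, a t distribution, and genes in all 4 tables. Some results are not reported here. Members and lists were chosen with earlier results of these data known. Calculations used Python 3.11.15, numpy 2.4.6, pandas 2.3.3 and scipy 1.17.1.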

Additional observations from a re-analysis of the deposited data

Results flagged for a closer look

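HLA-B differed between the siRNAs in its response to Nutlin-3a, by a log2 difference of -0.35 (z test, Benjamini-Hochberg adjusted p 0.0399). It rose by 0.27 on the log2 scale in siControl and had -0.08 in siRFX7, in the authors' deposited tables. With a t distribution of 8 degrees of freedom the adjusted p was 0.277. HLA-E, a non-classical heavy chain, had a difference of the same sign, -0.52. Uniquely assigned reads cannot be told apart from shared ones in these tables.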

How the results depend on the processing

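The members called were 6 and 5 with Nutlin-3a in siControl and siRFX7, 5 and 3 with siRFX7 in DMSO and Nutlin-3a, and 1 for the difference of the Nutlin-3a effects. With an absolute log2 change of at least 0.58 required, they were 2, 4, 0, 1 and 0 in that order. At an adjusted p below 0.01, 3 were called with siRFX7 in DMSO and 0 for the difference. With a t distribution of 8 degrees of freedom, 3 were called with Nutlin-3a in siRFX7, 3 with siRFX7 in DMSO and 0 for the difference. With equal group totals, and over genes whose mean normalized count was at least 100, 2 were called for the difference. The causes were not tested beyond the stricter threshold or the changed set of genes that each alternative consists of. With the median log2 change set to 0, and over genes in all 4 tables, 45 of the 45 member values kept their side of the threshold. Only the scalings, equal group totals and a median log2 change of 0, alter the estimates. None of the values changed sign under either scaling, and under the other alternatives no sign could change. Calls lost numbered 13 with the minimum change, 4 at 0.01 and 5 with the t distribution. No paired analysis was possible because the tables hold no values per library, and for the same reason leaving out a library and other normalizations of counts were not run. Depth limits PSMB8, whose recovered levels of 2.69 to 11.7 had model errors of up to 42.0%.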

Other observations

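The standard proteasome subunits, whose catalytic members PSMB8 and PSMB9 replace, were called in both directions. Of 14, 3 were called higher and 3 lower with Nutlin-3a in siControl by DESeq2 in the authors' deposited table, with a median log2 change of -0.06. There 22.0% of all genes were called higher and 21.2% lower. PSMB5, a catalytic subunit, rose by 0.27 on the log2 scale with Nutlin-3a in siControl and by 0.27 with siRFX7 in DMSO in the authors' deposited tables, while PSMA7, a ring subunit, fell by 0.39 and 0.32 with Nutlin-3a in siControl and siRFX7. With siRFX7, 2 were called higher and 1 lower in DMSO and 2 and 0 in Nutlin-3a by DESeq2 in the authors' deposited tables. At an unadjusted p below 0.05 the counts in Nutlin-3a were 4 and 0. Over all genes, 13.5% were called higher and 15.5% lower with siRFX7 in DMSO, and 15.0% and 13.6% in Nutlin-3a.

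Likeness was measured as the distance between the 4 centred log2 group levels over 10863 protein-coding genes whose mean normalized count was at least 100. The gene most like TAP1 was ANKRA2, at a distance of 0.0487, that most like ERAP1 was SLC36A1 at 0.167, that most like TAPBP was NLK at 0.0252 and that most like B2M was PDK1 at 0.0337. HLA-B and HLA-C were nearest to each other among the members, at 0.153, with 145 other genes nearer to HLA-B and 412 nearer to HLA-C. The nearest member to TAP1 was ERAP1, at 1.44, with 1663 other genes nearer.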
